A study of Mus musculus with 20 samples.

Results

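Cytokine messages are short-lived because a small set of proteins binds them and starts their destruction, and this account follows the transcripts of 6 such regulators in mouse eosinophils: Zc3h12a, Zfp36, Zfp36l1, Zfp36l2, Rc3h1 and Ddx6. The members were chosen by gene symbol, as the probe set with that symbol in the platform annotation, and all 6 were found among 17771 genes with an unambiguous probe set. In the deposited table each had 1 probe set (1427348_at for Zc3h12a, 1452519_a_at for Zfp36, 1450644_at for Zfp36l1, 1437626_at for Zfp36l2, 1434933_at for Rc3h1 and 1447789_x_at for Ddx6). Only 54 of the 17771 genes had several there, and no second probe set of a member could be compared. All 6 passed the filter on dim genes, which kept 11766 genes. Levels were read on 20 one-colour arrays, 1 per sample, and are given on the log2 scale of the deposited table, on which a difference of 1 is a doubling of signal. The genes lie on chromosomes 4, 7, 12, 17, 1 and 9 in the same order. A level is comparable between samples for the same probe set and is not comparable between genes.

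The eosinophils, granulocytes of allergic inflammation, were grown from bone marrow and used on day 12 of culture. They came from Dusp5+/+ mice (wild type, WT) or Dusp5-/- mice (knockout, KO), 5 mice per genotype, and all 4 groups shared this culture. Cells were left in medium (untreated) or given the alarm cytokine IL-33 at 25 ng/ml for 4 hours, which gave 4 groups of 5 arrays. Dusp5 is a nuclear phosphatase that switches off the MAP kinases ERK1 and ERK2. The labels state neither the sex and age of the mice nor which part of Dusp5 was deleted.

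Most cytokine mRNAs carry AU-rich elements or small stem-loops in their untranslated tails. Zfp36 (tristetraprolin, TTP) and its relatives Zfp36l1 and Zfp36l2 are zinc finger proteins that bind AU-rich elements and bring in the CCR4-NOT complex, which removes the poly(A) tail. Zc3h12a encodes Regnase-1, an endonuclease that cuts stem-loops of messages such as that of interleukin 6, and Rc3h1 encodes Roquin-1, which binds similar stem-loops and also recruits CCR4-NOT. Ddx6 is a DEAD-box helicase of processing bodies that links deadenylation to removal of the cap. TTP and Regnase-1 are known as feedback regulators, since the inflammatory signals that raise cytokine messages also act on them.

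The members answered IL-33 differently, from no called change in Zfp36 to the large rise of Zc3h12a. Their promoters are shown for reference, and whether the letters bear on these responses was not tested. RefSeq promoter sequences of the GRCm38.p6 build matched 4 of the 6 members, and Zfp36l2 and Ddx6 had no match. The 250 bases before the transcription start are printed 5′ to 3′ on the strand of the gene, with matches to the motifs searched in capitals. They lie at chr4:125127882-125128131 (minus strand) for Zc3h12a, chr7:28379229-28379478 (minus strand) for Zfp36, chr12:80113014-80113263 (minus strand) for Zfp36l1 and chr1:160906161-160906410 (plus strand) for Rc3h1.
Zc3h12a: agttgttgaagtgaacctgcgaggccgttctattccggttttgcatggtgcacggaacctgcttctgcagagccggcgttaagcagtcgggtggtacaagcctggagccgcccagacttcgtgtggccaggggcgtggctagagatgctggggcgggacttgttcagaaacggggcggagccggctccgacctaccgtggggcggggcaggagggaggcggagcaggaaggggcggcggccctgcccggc
Zfp36: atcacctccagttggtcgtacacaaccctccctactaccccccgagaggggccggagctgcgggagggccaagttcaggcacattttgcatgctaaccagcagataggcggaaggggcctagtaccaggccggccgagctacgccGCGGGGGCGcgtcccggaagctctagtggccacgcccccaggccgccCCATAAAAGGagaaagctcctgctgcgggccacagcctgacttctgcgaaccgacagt
Zfp36l1: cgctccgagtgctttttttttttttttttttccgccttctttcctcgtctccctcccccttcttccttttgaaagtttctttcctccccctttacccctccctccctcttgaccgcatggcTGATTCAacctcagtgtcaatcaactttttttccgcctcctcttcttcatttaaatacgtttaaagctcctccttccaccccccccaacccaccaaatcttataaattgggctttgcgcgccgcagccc
Rc3h1: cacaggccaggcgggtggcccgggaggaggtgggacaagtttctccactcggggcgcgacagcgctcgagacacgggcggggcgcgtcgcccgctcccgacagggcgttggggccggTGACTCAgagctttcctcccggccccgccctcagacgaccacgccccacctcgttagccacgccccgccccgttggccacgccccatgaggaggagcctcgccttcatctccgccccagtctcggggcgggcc

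Motifs were searched on both strands and none of the matches overlapped another. They were the NF-kB consensus, the CArG box bound by serum response factor, the AP-1 motif TGANTCA, the EGR motif GCGNGGGCG and the cyclic AMP response element TGACGTCA. The Zfp36 window held an EGR match from -105 to -97 and a CArG box match from -58 to -49, counted from the base before the start as -1. The Zfp36l1 window held an AP-1 match from -129 to -123 and the Rc3h1 window one from -133 to -127. In the Zc3h12a window none of the 5 motifs was found, and sequence outside the windows was not searched. Among all 32841 promoter windows of this length, 3.9% held the NF-kB consensus, 6.75% AP-1, 4.7% EGR, 1.47% a CArG box and 1.55% the cyclic AMP response element. These matches describe letters and do not show binding.

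The genotype labels of the arrays were checked first. Titles of the IL-33 samples read Dusp5 in place of a treatment, so the treatment was taken from the separate treatment label. Dusp5 signal lay between 4.02 and 5.15 on the 10 knockout arrays and between 7.85 and 10.23 on the 10 wild-type arrays, so the genotypes did not overlap. The median of all probe sets was 4.25 to 4.32 on every array. The 5 eosinophil markers Epx, Prg2, Siglecf, Ccr3 and Il5ra exceeded the 40th percentile of the array on all 20 arrays, with a mean level of 10.4 to 11.2. Markers of other cells were also present: all 8 neutrophil markers and all 9 monocyte, macrophage and dendritic markers on the array exceeded that percentile on all arrays, at mean levels of 7.20 to 8.26 and 8.03 to 8.92. Mast cell and basophil markers (7 of 8 bright enough to test) had mean levels of 7.47 to 7.83. Erythroid and megakaryocyte markers (5 of 6 bright enough to test) had mean levels of 6.96 to 7.42. Lymphocyte markers were dim (4 of 7 bright enough to test, mean level 3.94 to 4.46). None of the tested markers of these cell types passed the test between genotypes in either treatment. IL-33 changed 0 of 8 neutrophil and 4 of 9 monocyte and dendritic markers in wild-type cells and 1 of 8 and 6 of 9 in knockout cells. It changed 3 of 7 and 4 of 7 mast cell and basophil markers, 1 of 4 and 0 of 4 lymphocyte markers and 0 of 5 and 1 of 5 erythroid and megakaryocyte markers in the same order, where 42.7% and 52.2% of all genes were called, and 2 of the 5 eosinophil markers fell in each genotype. Their part in the results was not tested, and in such bulk samples fewer cells of a type and less RNA per cell cannot be told apart.

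IL-33 changed 5 of the 6 regulators in wild-type cells and the same 5 in knockout cells. Zc3h12a, Ddx6, Zfp36l1 and Rc3h1 rose, Zfp36l2 fell, and Zfp36 did not pass the test. Zc3h12a rose about 14-fold and Ddx6 3.50-fold in wild-type cells, while the other changes were less than 2-fold. The calls rest on limma across all 11766 genes at a Benjamini-Hochberg adjusted p under 0.05. By this rule 42.7% of all genes were called in wild-type cells (16.1% higher, 26.7% lower) and 52.2% in knockout cells (18.9% higher, 33.2% lower). A call alone therefore does not set a member apart. By absolute size of change in wild-type cells Zc3h12a ranked 16th, Ddx6 134th and Zfp36l1 778th of all genes tested. Zfp36l2 ranked 1666th, Rc3h1 2403rd and Zfp36 9183rd. Treated and untreated arrays did not overlap for 4 of the 6 regulators in wild-type and 5 of 6 in knockout cells, as for 28.3% and 38.5% of all genes. Over all genes tested, wild-type cells had a median change of -0.05 and knockout cells one of -0.08, against 0.66 and 0.65 for the 6 regulators. The members were chosen with earlier results of these data known, so this contrast is not independent of that choice.

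**Figure D1:**
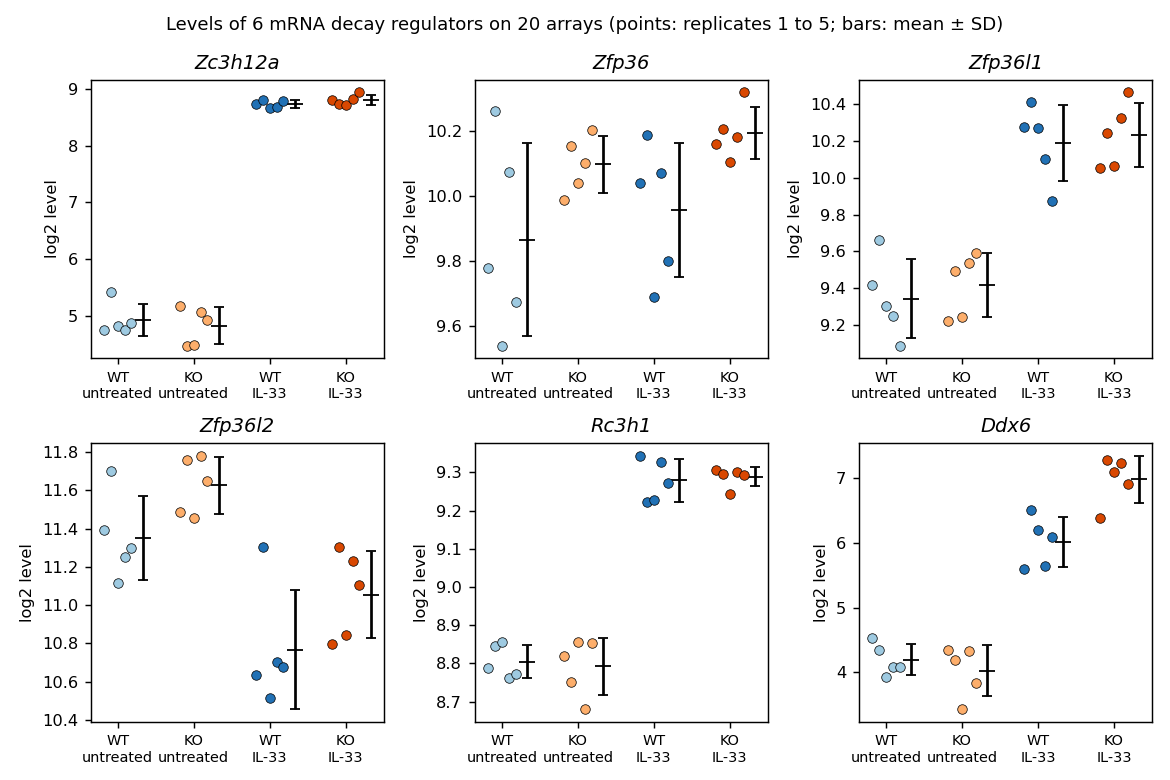
Log2 level (vertical axis, own range in each panel) of the 6 genes in wild-type (WT) and knockout (KO) cells, untreated or with IL-33; points are the 5 arrays of a group and bars the mean ± SD. Zc3h12a shows the widest gap between untreated (at most 5.42) and IL-33 arrays (at least 8.66), Zfp36 shows overlapping groups, and Ddx6 after IL-33 is higher in KO (mean 6.97) than in WT (6.004).

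Zc3h12a, the gene of the endonuclease Regnase-1, was the most responsive member. On the untreated wild-type arrays it stood at 4.76, 5.42, 4.82, 4.75 and 4.88, and on the untreated knockout arrays at 5.17, 4.48, 4.48, 5.07 and 4.94 (replicates 1 to 5). After IL-33 it stood at 8.74, 8.80, 8.66, 8.68 and 8.79 in wild-type and at 8.81, 8.74, 8.71, 8.83 and 8.94 in knockout cells. Every IL-33 array lay above every untreated array, and the genotypes overlapped in both treatments. The rise was 3.81 ± 0.13 (log2 difference ± SE, n = 5 arrays per group; 14.02-fold; limma adjusted p = 1.1e-14) in wild-type cells and 3.98 ± 0.13 (15.8-fold; adjusted p = 4.5e-15) in knockout cells. Among the rises of all 11766 genes these ranked 16th and 15th. The SD was 0.28 and 0.33 on untreated wild-type and knockout arrays and 0.06 and 0.09 on IL-33 arrays, a difference that was not tested. In wild-type cells the larger untreated SD rests on replicate 2 (5.42), as the other untreated arrays read 4.75 to 4.88. The 40th percentile of the arrays, for comparison with the untreated values, was 3.56 to 3.68.

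Rc3h1, the gene of Roquin-1, which shares stem-loop targets with Regnase-1, rose by a small and very even step. Untreated arrays read 8.79, 8.85, 8.86, 8.76 and 8.77 in wild-type and 8.82, 8.75, 8.86, 8.68 and 8.85 in knockout cells. IL-33 arrays read 9.34, 9.22, 9.23, 9.33 and 9.27 in wild-type and 9.31, 9.30, 9.24, 9.30 and 9.29 in knockout cells. The treatments did not overlap in either genotype. The difference was 0.47 ± 0.05 (1.39-fold; limma adjusted p = 3.5e-07) in wild-type and 0.50 ± 0.05 (1.41-fold; adjusted p = 1.2e-07) in knockout cells. Roquin-1 mRNA thus gained well under a doubling, with the smallest standard error of the 6 members.

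The 3 zinc finger genes of the Zfp36 family, which bind AU-rich elements, went 3 ways. Zfp36l1 rose, Zfp36l2 fell, and Zfp36 itself, the gene of TTP, did not pass the test in either genotype.

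Zfp36l1 read 9.42, 9.66, 9.30, 9.25 and 9.09 on untreated wild-type arrays and 9.22, 9.50, 9.25, 9.54 and 9.59 on untreated knockout arrays. With IL-33 it read 10.28, 10.41, 10.27, 10.10 and 9.87 in wild-type and 10.06, 10.24, 10.07, 10.32 and 10.46 in knockout cells. No IL-33 array fell to the level of an untreated one. The rise was 0.84 ± 0.12 (1.79-fold; limma adjusted p = 8.3e-06) in wild-type and 0.81 ± 0.12 (1.76-fold; adjusted p = 8.4e-06) in knockout cells.

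Zfp36l2 read 11.39, 11.70, 11.12, 11.25 and 11.30 on untreated wild-type arrays and 11.49, 11.76, 11.46, 11.78 and 11.65 on untreated knockout arrays. With IL-33 it read 10.64, 11.31, 10.51, 10.70 and 10.68 in wild-type and 10.80, 11.30, 10.84, 11.23 and 11.10 in knockout cells. The knockout groups did not overlap, whereas the IL-33 array of wild-type replicate 2 (11.31) lay within the untreated wild-type range. The gene fell by 0.58 ± 0.14 on the log2 scale (limma adjusted p = 0.00198) in wild-type and by 0.57 ± 0.14 (adjusted p = 0.0018) in knockout cells.

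Zfp36 read 9.78, 10.26, 9.54, 10.07 and 9.67 on untreated wild-type arrays and 10.04, 10.19, 9.69, 10.07 and 9.80 on the IL-33 ones. In knockout cells it read 9.99, 10.15, 10.04, 10.10 and 10.20 untreated and 10.16, 10.21, 10.10, 10.18 and 10.32 with IL-33. Treated and untreated arrays overlapped in both genotypes. The difference was 0.09 ± 0.12 (limma adjusted p = 0.55) in wild-type and 0.10 ± 0.12 (adjusted p = 0.50) in knockout cells. The 95% intervals ran from -0.15 to 0.33 and from -0.14 to 0.34. They come from the fit without the mouse as a block, so they hold the spread between mice as well. The change within each mouse had an SD of 0.13 in wild-type and 0.05 in knockout mice (n = 5 per genotype). The only time point was 4 hours.

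Ddx6, the helicase of processing bodies, gave the second largest rise of the 6 and the only called difference between genotypes. Its probe set is of the class marked x, which holds probes that can match other transcripts too, and the annotation lists no accession for it, so the signal may not come from Ddx6 mRNA alone. Untreated arrays read 4.54, 4.35, 3.93, 4.08 and 4.09 in wild-type and 4.34, 4.19, 3.44, 4.33 and 3.84 in knockout cells, close to the 40th percentile, which 1 knockout array did not reach. With IL-33 the values were 5.60, 6.51, 6.19, 5.64 and 6.09 in wild-type and 6.38, 7.27, 7.09, 7.23 and 6.90 in knockout cells. IL-33 arrays lay above all untreated arrays in both genotypes. The rise was 1.81 ± 0.20 (3.50-fold; limma adjusted p = 5.4e-07) in wild-type and 2.95 ± 0.20 (7.70-fold; adjusted p = 3.1e-10) in knockout cells, ranking 123rd and 46th among the rises of all genes.

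The replicate numbers of the labels paired the arrays, as described with the processing, so the change could be read within each mouse. Zc3h12a rose by 3.38 to 3.98 in the 5 wild-type mice and by 3.64 to 4.26 in the 5 knockout mice. Ddx6 rose by 1.06, 2.16, 2.26, 1.56 and 1.99 in wild-type mice and by 2.04, 3.08, 3.66, 2.90 and 3.05 in knockout mice. The ranges of the genotypes overlapped for both genes, for Ddx6 through knockout mouse 1 alone (2.04), which lay within the wild-type range.

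Zfp36l1 rose by 0.75 to 0.97 in wild-type and 0.75 to 0.87 in knockout mice, and Rc3h1 by 0.37 to 0.57 and 0.39 to 0.62. Zfp36l2 fell in all 10 mice, with changes between -0.76 and -0.40 in wild-type and between -0.69 and -0.46 in knockout mice. Zfp36 changed by -0.08 to 0.26 in wild-type mice, higher in 3 of 5, and by 0.05 to 0.17 in knockout mice, higher in 5 of 5. With the mouse as a fixed block this small rise of Zfp36 still did not pass (limma adjusted p = 0.161 in wild-type and 0.13 in knockout cells).

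**Figure D2:**
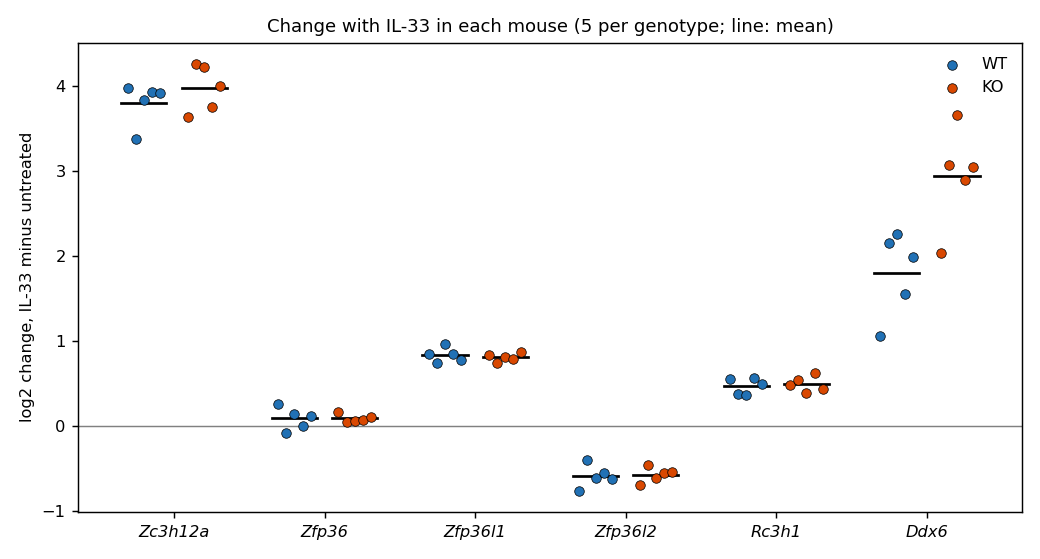
Log2 change with IL-33 (IL-33 array minus untreated array of the same mouse, vertical axis) for the 6 genes; each point is 1 mouse, blue for wild type and orange for knockout, and the black line is the mean of 5. Zc3h12a lies between 3.38 and 4.26 in all 10 mice, Zfp36l2 lies below 0 in all 10, and the Ddx6 changes average 1.81 in wild-type and 2.95 in knockout mice.

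Loss of Dusp5 was next compared within each treatment. In untreated cells 0 of the 6 regulators passed, in a comparison in which limma called 0.0255% of all genes (0.017% higher and 0.0085% lower in knockout cells; 3 genes, and 1517 at an unadjusted p under 0.05). The differences, knockout minus wild type, ran from -0.17 ± 0.20 for Ddx6 to 0.28 ± 0.14 for Zfp36l2. After IL-33 1 of the 6 passed, where limma called 2.21% of all genes, 0.986% as higher and 1.22% as lower in knockout cells. The genotypes overlapped for all 6 regulators in both treatments, while 1.1% of all genes untreated and 3.32% after IL-33 had groups that did not overlap.

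That gene was Ddx6, higher in knockout cells by 0.97 ± 0.20 (1.96-fold; limma adjusted p = 0.0227; 95% interval 0.55 to 1.39), the 12th largest positive difference of all genes. The groups overlapped, since wild-type replicate 2 (6.51) lay above knockout replicate 1 (6.38). The call was lost without any 1 of the IL-33 arrays of wild-type replicates 1, 4 and 5 or knockout replicates 2, 3, 4 and 5 (adjusted p of 0.0524 to 0.0686), and without both arrays of wild-type mouse 1, 4 or 5 or knockout mouse 2, 4 or 5 (adjusted p of 0.0673 to 0.0822). It was also lost in a fit of these 10 arrays alone (adjusted p = 0.0745), while the difference itself stayed between 0.87 and 1.12 over all the fits that left out arrays. The number of genes called in this comparison is itself unstable, from 24 to 2094 over those fits. It was 1659 or 2094 without the IL-33 array or both arrays of wild-type replicate 2, and 1049 or 1167 without those of knockout replicate 1.

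For the other 5 genes the intervals of the difference after IL-33 included 0. Those of Zfp36 (95% interval -0.0045 to 0.48) and Zfp36l2 (-0.0022 to 0.58) only just did. The difference was 0.07 ± 0.13 for Zc3h12a (95% interval -0.21 to 0.35), 0.04 ± 0.12 for Zfp36l1 (-0.20 to 0.29) and 0.01 ± 0.05 for Rc3h1 (-0.10 to 0.12). Rc3h1 had the narrowest of these intervals. The spread behind each interval is shared over all 4 groups. For Zc3h12a it includes the untreated wild-type and knockout arrays, which varied more (SD 0.28 and 0.33) than the IL-33 arrays compared (0.06 and 0.09).

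Zfp36 and Zfp36l2 stood slightly higher in knockout cells in both treatments without passing the test. Zfp36 differed by 0.23 ± 0.12 untreated and 0.24 ± 0.12 after IL-33 (limma adjusted p = 0.384 and 0.215), and Zfp36l2 by 0.28 ± 0.14 and 0.29 ± 0.14 (adjusted p = 0.386 and 0.21). Wild-type replicate 2 was the highest wild-type array for both genes in both treatments, and after IL-33 Zfp36l2 passed without that array (0.42, adjusted p = 0.0267). Without both arrays of that mouse, Zfp36l2 (0.42, adjusted p = 0.0123) and Zfp36 (0.29, adjusted p = 0.0488) passed after IL-33. Both untreated values then missed the threshold. The values in the 2 treatments come from the same mice and are not independent of each other.

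The difference of the IL-33 responses between genotypes (the interaction) was called for 0 of the 6 regulators, and limma called 0% of all genes in it, with 568 at an unadjusted p under 0.05 and 26 adjusted calls with the mouse as a random block. Ddx6 had the third largest interaction of all genes by size, 1.14 ± 0.29 (95% interval 0.54 to 1.74; unadjusted p = 7.8e-04, limma adjusted p = 0.538), and with the mouse as a random block its adjusted p was 0.0566. Its larger rise in knockout cells is therefore a value that missed the threshold. The interaction was 0.17 ± 0.19 for Zc3h12a and between -0.03 and 0.02 for the other 4 genes.

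**Figure D3:**
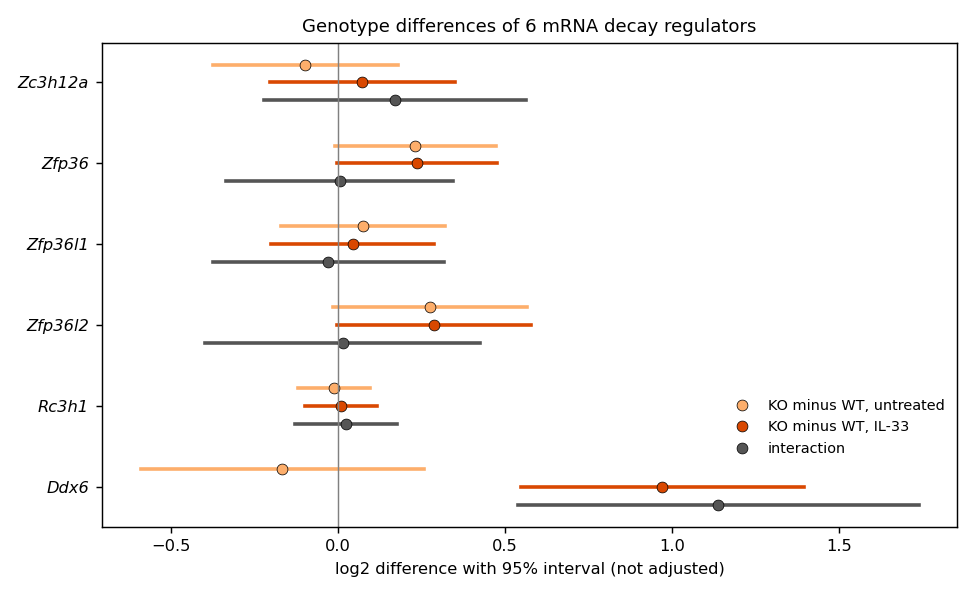
Knockout minus wild type difference (log2, horizontal axis) of the 6 genes untreated and after IL-33, with the interaction; points are the estimates and lines their 95% intervals, not adjusted for the number of genes. Only the Ddx6 values after IL-33 (0.97) and for the interaction (1.14) have intervals that leave out 0.

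The levels of each gene can be ordered over the 4 conditions. Zc3h12a, Rc3h1 and Zfp36l1 were low in both untreated groups and high in both IL-33 groups, and within a treatment the genotypes overlapped and did not pass the test. Zfp36l2 was highest in untreated knockout cells (11.63 ± 0.15, SD, n = 5), then untreated wild-type (11.35 ± 0.22), IL-33 knockout (11.05 ± 0.23) and IL-33 wild-type cells (10.77 ± 0.31). The genotypes did not pass the test within a treatment, and untreated wild-type against IL-33 knockout cells was not tested. Ddx6 was lowest in the untreated groups (4.03 ± 0.39 in knockout and 4.20 ± 0.24 in wild-type cells), followed by IL-33 wild-type (6.004 ± 0.385) and IL-33 knockout cells (6.97 ± 0.36). For Zfp36 the 4 means spanned 9.87 to 10.19 and no comparison within a genotype or treatment passed.

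Genes with the most similar profile were found by the root mean square difference over the 20 arrays, with each gene centred on its own mean. Nearest to Zc3h12a was Map3k8, the MEK-activating kinase TPL2, at 0.278, followed by the inhibitory receptor gene Pilra (0.33), the lectin receptor Clec4e (0.334), the cytokine signalling inhibitor Socs3 (0.38) and Serf1 (0.384); the median over all genes was 2. Map3k8 rose by 3.73 in wild-type and 3.92 in knockout cells. Nearest to Ddx6 were the small GTPase Rab20 (0.339), the kinase Plk3 (0.348) and Osgin2 (0.37), against a median of 1.32. These genes rose by 1.89 to 1.96 in wild-type and by 2.44 to 2.63 in knockout cells.

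Zfp36l1 lay nearest to the receptor phosphatase Ptprj (0.101), Ccdc86 (0.111) and Ado (0.112), and Zfp36l2 to the ubiquitin ligase Rchy1 (0.0847), the elastase Cela1 (0.102) and Rnase6 (0.102). Rc3h1 lay nearest to Snapc1 (0.0726), Slain2 (0.0735) and Bcl2l13 (0.077), and Zfp36 to the coactivator Ncoa3 (0.0911), the TSLP receptor chain Crlf2 (0.0935) and Gm17586 (0.0972). A small distance is easier to reach for a gene that changes little, so the distances of different members do not rank them.

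Relatives of the members were called in both directions, where 42.7% of all genes were called in wild-type and 52.2% in knockout cells. Of 7 tested RNases, zinc finger and ROQ relatives 3 rose and 3 fell with IL-33 in each genotype, with a median of -0.05 in wild-type and 0.15 in knockout cells. Zc3h12c, of the Regnase family, rose by 3.05 ± 0.13 in wild-type and 3.78 ± 0.13 in knockout cells, and N4bp1, a related RNase, by 1.14 ± 0.11 and 1.08 ± 0.11. Zc3h12d, also of the Regnase family, fell by 0.83 ± 0.16 and 1.20 ± 0.16 on the log2 scale, and Khnyn, the RNase partner of the antiviral protein ZAP, by 0.75 ± 0.09 and 0.92 ± 0.09.

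Zc3h12c read 5.42 ± 0.16 and 5.16 ± 0.23 (SD, n = 5) in untreated wild-type and knockout cells and 8.47 ± 0.22 and 8.94 ± 0.23 after IL-33. After IL-33 it was higher in knockout cells by 0.47 ± 0.13 (limma adjusted p = 0.0574, and 0.0422 with the mouse as a random block). Its interaction of 0.73 ± 0.18 missed the threshold (adjusted p = 0.522) and passed with the mouse as a random block (adjusted p = 0.0222).

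The machinery that the members recruit was also called in both directions. Of 17 tested deadenylation genes 3 rose and 7 fell in each genotype (median -0.20 in wild-type, -0.22 in knockout cells). That is 58.8% called, against 42.7% and 52.2% of all genes. Tob1, an adaptor that brings deadenylases to messages, fell by 1.17 ± 0.10 and 0.98 ± 0.10 on the log2 scale, and the deadenylase subunit Cnot6l by 1.08 ± 0.13 and 1.38 ± 0.13. The related adaptor Btg1 rose by 0.70 ± 0.18 and 0.66 ± 0.18.

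Of 17 decapping, Lsm and exonuclease genes, the partners of Ddx6, 2 rose and 6 fell in wild-type and 3 rose and 7 fell in knockout cells. These are 47.1% and 58.8% called, against 42.7% and 52.2% of all genes. Lsm6, of the ring that binds deadenylated tails, fell by 0.78 ± 0.15 and 0.63 ± 0.15 on the log2 scale, and the decapping enzyme Dcp2 by 0.30 ± 0.11 and 0.36 ± 0.11 (in wild-type cells the Dcp2 call was lost in the fit of these groups alone, limma adjusted p = 0.0709, and in 5 of the 15 fits that left out arrays, with an adjusted p of up to 0.0978). Dcp1a, the activator of Dcp2, counts among the genes that rose, but its untreated signal was not clearly above the dim end: 3.59 ± 0.16 in wild-type and 3.50 ± 0.20 in knockout cells (SD, n = 5), over the 40th percentile on 1 of 5 arrays each, against 3.89 ± 0.21 and 3.95 ± 0.20 with IL-33. Dcp1a passed the filter on dim genes only with its IL-33 arrays counted. Its call in wild-type cells (limma adjusted p = 0.047) was lost in 10 of the 15 fits that left out arrays. It was also lost with quantile normalization (adjusted p = 0.0984). The exonuclease Xrn1 fell by 0.28 ± 0.10 in wild-type cells (adjusted p = 0.0315; 0.168 with quantile normalization), a call lost in 7 of the 15 fits that left out arrays.

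The remaining decay lists were mixed as well, where 42.7% of all genes were called in wild-type and 52.2% in knockout cells. Of 16 RNA exosome and Ski genes 3 rose and 4 fell in wild-type and 4 rose and 4 fell in knockout cells, with the ribosome rescue factor Hbs1l at 0.81 ± 0.07 and 0.93 ± 0.07 and the exosome subunit Exosc5 at -0.52 ± 0.09 and -0.68 ± 0.09. Of 6 nonsense-mediated decay genes 2 rose and 3 fell in each genotype. Of 9 Argonaute and Tnrc6 genes 2 rose and 3 fell in wild-type and 5 rose and 4 fell in knockout cells, among them Tnrc6b, a scaffold of microRNA silencing, at -0.54 ± 0.07 and -0.59 ± 0.07. Of 10 other AU-rich element binding proteins 1 rose and 3 fell in wild-type and 2 rose and 4 fell in knockout cells, with the stress granule protein Tia1 at -0.41 ± 0.07 and -0.35 ± 0.07. Between genotypes these decay lists, relatives included, had 0 of 82 calls untreated and 1 of 82 after IL-33. Of all genes 0.0255% and 2.21% were called in these comparisons, so the counts do not set decay genes apart. The call after IL-33 was the exosome subunit Exosc7 (-0.32 ± 0.08, limma adjusted p = 0.041). It was lost in 16 of the 20 fits that left out IL-33 arrays.

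Genes whose products act on the decay proteins were called upward only. Of 11 tested kinase, phosphatase and adaptor genes of this list 5 rose in wild-type (45.5%) and 8 in knockout cells (72.7%), and 0 fell. Of all genes 42.7% and 52.2% were called, 16.1% and 18.9% as higher. The share called in wild-type cells was thus near that of all genes. Ikbke, an IkB kinase relative, rose by 2.68 ± 0.10 and 2.81 ± 0.10. Mapkapk2, the kinase MK2, which phosphorylates TTP, rose by 1.18 ± 0.07 and 1.22 ± 0.07, and Ikbkb, the kinase that marks Regnase-1 for degradation, by 0.40 ± 0.09 in wild-type cells. mRNA levels do not show the activity of these kinases or of the decay proteins.

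**Figure D4:**
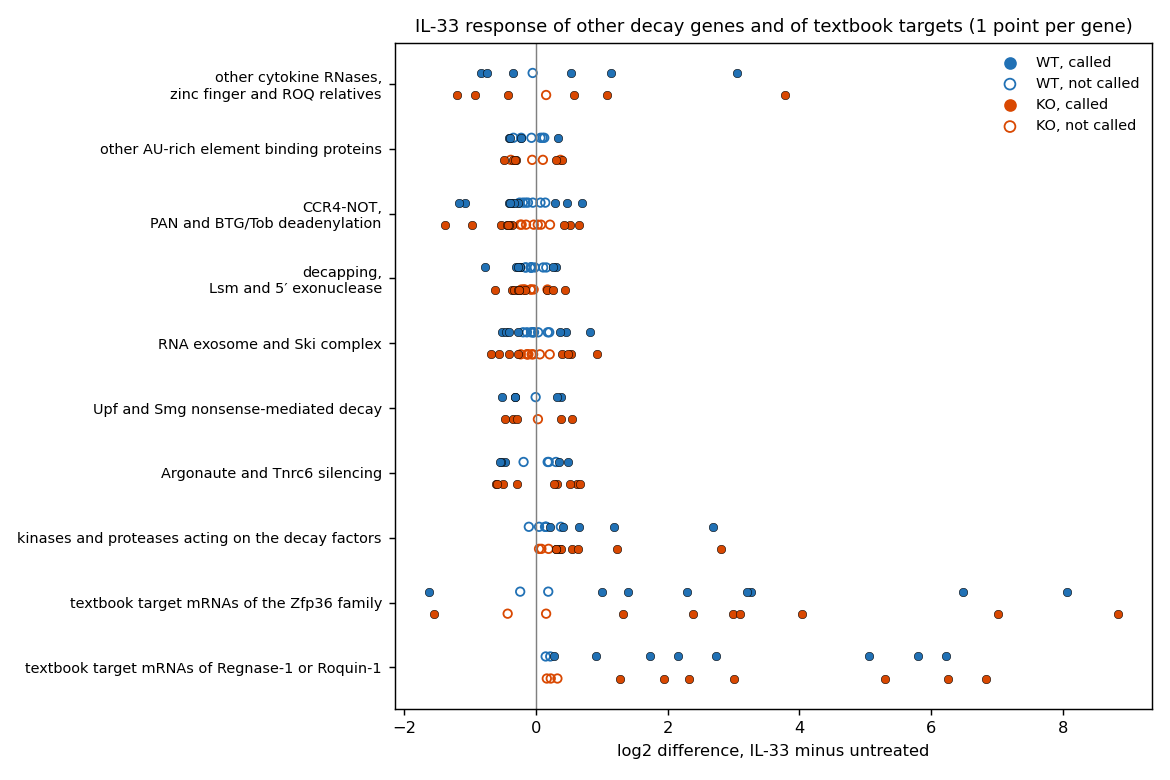
Log2 difference with IL-33 (horizontal axis) of each tested gene of 10 lists, blue in wild-type (WT) and orange in knockout (KO) cells; filled points were called (limma adjusted p under 0.05) and open points were not. Decay genes lie on both sides of 0, mostly within 1 of it, while target messages reach farther right. The rightmost points are Ptgs2, whose untreated signal exceeded the 40th percentile on only 1 of 5 arrays in each genotype, so its position is not an exact change.

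Known target messages of the members were mostly higher after IL-33. Of 10 tested textbook targets of the Zfp36 family 7 rose and 1 fell in each genotype (median 1.85 in wild-type and 2.69 in knockout cells). Of 10 targets of Regnase-1 or Roquin-1 8 rose in wild-type and 7 in knockout cells (median 1.95 and 2.13). Of all genes 16.1% and 18.9% were called higher, but the target lists were chosen with earlier results of these data known. The Zfp36 family count includes Csf2 and Ptgs2, which passed the dim filter only through their IL-33 arrays. Their place among the risen targets is therefore no independent result. Il10 and Il23a of that list, and Il12b and Il2 of the other, did not pass the filter. Both medians of the Zfp36 family targets are the midpoint of Ier3 and Csf2, and the untreated Csf2 signal exceeded the 40th percentile on 0 of 5 wild-type and 1 of 5 knockout arrays, so these medians are not compared. Ptgs2, the cyclooxygenase gene, was likewise dim untreated (3.18 ± 0.69 in wild-type and 3.17 ± 0.39 in knockout cells, SD, n = 5) and stood at 11.25 ± 0.34 and 12.01 ± 0.17 with IL-33. Tnf, the best known TTP target, rose by 3.26 ± 0.20 and 4.04 ± 0.20, and Ier3 by 2.29 ± 0.08 and 2.39 ± 0.08, whereas Fos fell by 1.63 ± 0.12 on the log2 scale in wild-type cells. Il6, the best known Regnase-1 target, rose by 5.06 ± 0.10 and 5.30 ± 0.10, and Nfkbiz by 5.80 ± 0.13 and 6.26 ± 0.13. A steady level holds synthesis and decay together, and neither was measured alone.

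Between genotypes 0 of these 20 targets passed untreated and 3 of 20 after IL-33, all higher in knockout cells. Of all genes 0.0255% were called untreated and 2.21% after IL-33. Csf2, the gene of the growth factor GM-CSF and a TTP target, stood at 4.62 ± 0.33 in wild-type and 6.32 ± 0.77 in knockout cells after IL-33 (SD, n = 5), a difference of 1.70 ± 0.26 (limma adjusted p = 0.00232). Rel, an NF-kB subunit, was higher by 0.71 ± 0.13 (adjusted p = 0.0138) and Nfkbid, an IkB protein, by 0.47 ± 0.10 (adjusted p = 0.0238). In the fit of the 10 IL-33 arrays alone these 3 missed the threshold (adjusted p = 0.0554, 0.068 and 0.0579). The calls of Rel and Nfkbid were also lost in 5 and 16 of the 20 fits that left out arrays, and Csf2 kept its call in those fits. The interaction of Csf2 was 1.59 ± 0.37 (adjusted p = 0.444, and 0.0346 with the mouse as a random block), a value that rests on the dim untreated Csf2 signal.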

How the data were processed

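Total RNA of 20 bone-marrow-derived eosinophil samples was converted to biotin-labelled cRNA and hybridised to one-colour arrays, per the labels. The authors deposited 1 table of log2 values for 20630 probe sets, recognised as log2 by its range of 1.27 to 13.99. The labels used here do not state its normalization, and no further one was applied. Of the probe sets 17826 had 1 gene symbol in the platform annotation, 91 several and 2711 none; 17675 of the first kind matched a RefSeq gene (GRCm38.p6), whose symbol was used. Where a gene had several probe sets in this table (54 genes), the brightest stood for it. A gene was tested when it exceeded the 40th percentile of the array on at least 5 arrays.

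limma 3.58.1 in R 4.3.3 fitted 1 mean per group to all 20 arrays (16 residual degrees of freedom), with eBayes and Benjamini-Hochberg adjustment over 11766 genes; the call is an adjusted p under 0.05. The fit was also run on simulated data with independent noise on each array. Real arrays of the same mouse had a consensus correlation of 0.464. The simulation held no such mouse effect, so it cannot show how the fit behaves on paired arrays. Arrays sharing a genotype and a replicate number deviated together (r of 0.262 to 0.783 over genes, 10 of 10 highest with their own number), and the series text names 5 mice per genotype, so each number stands for 1 mouse. Named genes are the 6 members, up to 4 called genes per list and comparison with the largest change (6 for targets, 2 where none was called), the 5 or 3 nearest profiles, Dusp5 and the eosinophil markers. Members and lists were chosen with earlier results of these data known. The alternatives are another dim filter or none, another normalization, the mouse as a block, fewer groups in the fit, another variance model, the mean of probe sets, and each array or mouse left out.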

Additional observations from a re-analysis of the deposited data

Results flagged for a closer look

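Among 24 sets of 5 arrays (6 genes in 4 groups) 3 had an array far from the others by Dixon's test, and chance gives about 1 in 20. Zc3h12a on the untreated array of wild-type replicate 2 read 5.42, above the next value of 4.88. Zfp36l2 on the IL-33 array of the same mouse read 11.31, above the next value of 10.70. Rc3h1 on the IL-33 array of knockout replicate 3 read 9.24, below the next value of 9.29, a small distance in a group with an SD of 0.03. Without the first array Zc3h12a rose by 3.93 in wild-type cells, and without the second Zfp36l2 fell by 0.72.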

How the results depend on the processing

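The 5 member calls with IL-33 in each genotype, and the absence of member calls untreated and in the interaction, held under every alternative run. The count of 1 member called after IL-33 became 0 with only the arrays of the groups compared, and ranged from 0 to 3 when arrays were left out. Genes called between genotypes after IL-33, 260 as reported, numbered 152 with no dim filter, 444 with the filter at the 60th percentile, 161 with arrays centred on the median, 514 with the mouse as a random replicate block and 24 with only the groups compared. They ranged from 24 to 2094 with arrays left out; those between untreated genotypes ranged from 3 to 651, the highest without wild-type replicate 2. The interaction had 26 calls with the random block, and up to 3 with arrays left out. The replicate block changed no member call.

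In the results tested, signs turned only for values near 0 that were not called (adjusted p of 0.745 or more). With quantile normalization the untreated genotype difference of Rc3h1 became 0.0026 and the interaction of Zfp36 -0.0099. For the genotype difference untreated, the range without single arrays, with turned values without both arrays of a mouse in brackets, was Rc3h1 -0.028 to 0.015 (0.00021, 0.015) and Zc3h12a -0.18 to 0.025 (0.025). For the genotype difference after IL-33, the range without single arrays was Smg6 -0.14 to 0.090 (0.026, 0.020, 0.090), Rc3h1 -0.0043 to 0.026 (-0.0043, -0.0032) and Zfp36l1 -0.035 to 0.10 (-0.035, -0.015). For the interaction, the range without single arrays was Zfp36 -0.094 to 0.086 (-0.037, -0.019, -0.014), Zfp36l2 -0.074 to 0.15 (-0.030, -0.016), Zfp36l1 -0.11 to 0.034 (0.0016) and Rc3h1 -0.0058 to 0.038 (-0.0021, -0.0034, -0.0091). The cause was not tested. Signal near the dim end limits Ptgs2, Csf2, Dcp1a and Ddx6 in untreated cells.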
